A study of Mus musculus with 960 samples.

Results

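Accessible DNA on the 3′ untranslated regions (UTRs) of genes, away from gene starts, accounted for 1.032% of the 50000 windows listed for a mouse breast tumour (exact 95% interval 0.945% to 1.12%), or 520 windows when rounded to the nearest 10. A window of 500 bp was counted when its midpoint lay more than 1 kb from every start site of a protein-coding transcript, lay outside coding sequence and 5′ UTRs, and fell inside a 3′ UTR in GENCODE release M1. These windows came from 460 called peaks. They lay on 2.22% of the 19118 protein-coding genes that had such sequence, here called host genes, and 1 of them lay in a pair of overlapping gene models that share the symbol BC037034. All positions are on the mouse build mm9.

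In the study, fixed cells of a PyMT tumour, which a polyoma oncogene drives in mammary epithelium, were stained with antibodies, their open chromatin was cut in bulk by Tn5 transposase, and cells were sorted singly into plates (Pi-ATAC). Of the 960 wells, those of 8 plates carried stains for EpCAM, found on epithelial cells, and for HIF1α, which low oxygen stabilises. Wells of 2 more plates carried stains for EpCAM and for CD45, found on leukocytes. The labels name no animal, age or strain beyond PyMT. The windows were called on pooled cells and carry no height or read count, so the list is 1 sample without replicates, the depth behind a window is unknown, and staining groups could not be compared. Intervals below cover counting error within this list, and neighbouring windows are not independent.

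A 3′ UTR is the stretch of an mRNA after the stop codon. It carries the sites through which microRNAs and RNA-binding proteins set the stability and translation of the mRNA, and near its end the signal AATAAA directs cleavage and polyadenylation. ATAC-seq reads the DNA and not the RNA, so a window here marks DNA that was open to the transposase, which is also how enhancers and other sites bound by transcription factors appear.

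The sequences below come from the 12 host genes with the most windows, to show which factor words and polyadenylation signals their windows held. All matches lie in a 3′ UTR of the gene named, except the CTCF word of Nfix, which is in an Nfix window but 110 bases past the transcript end, in the 3′ UTR of Lyl1. Each is 30 bases of the mm9 reference written 5′ to 3′ on the strand of the gene, with the match in capitals; a match is a description of letters and not a bound site. The first 3 hold the AP-1 word TGANTCA, recognised by Jun and Fos factors, or a CTCF word (CCA and AG separated by any 2 bases, then GGC after any 2 bases).
2010111I01Rik, AP-1, + strand, chr13:63426356-63426385: tgctgcagagcTGAGTCAttccctccacag
Slc10a7, AP-1, + strand, chr8:81256475-81256504: gagaagatttaTGAATCAtttgacagatgt
Nfix, CTCF, − strand, chr8:87228481-87228510: ttcccgcctCCAGCAGGGGGCgccgatgag
Plekhm3 also held the CTCF word, on the strand opposite to the gene.
Plekhm3, CTCF, − strand, chr1:64838371-64838400: tgaataacaGCCATCTTTTGGgagttttta
The next 3 hold CCGGAAG, the word of ETS factors.
D930048N14Rik, ETS, + strand, chr11:51470869-51470898: gagacccggccCCGGAAGtccaggctgccc
Faim2, ETS, − strand, chr15:99328943-99328972: agccaagtagctCCGGAAGgcttggataaa
Padi1, ETS, − strand, chr4:140370286-140370315: agagggtcaaggCCGGAAGttgagcctgtt
Edar, 2010011I20Rik and Olfml3 held the TEAD word GGAATG or its complement, and Rhoj held the complement of ACGTG, the core that HIF binds.
Edar, TEAD, − strand, chr10:58064689-58064718: catctgtagtcaGGAATGttgaggctccag
2010011I20Rik, TEAD, + strand, chr2:172180909-172180938: ccgctgctctccCATTCCggtacctaagta
Olfml3, TEAD, − strand, chr3:103539023-103539052: gccagggcttccCATTCCacctcttggtgg
Rhoj, HIF core, + strand, chr12:76498067-76498096: tgaccccctgagCACGTagagcttgacaaa
The AP-1 match of 2010111I01Rik lay 2.5 bp from the midpoint of its window and that of Slc10a7 37.5 bp from it. Gm12824 held none of the words searched in this order (AP-1, CTCF, NFI, ETS, RUNX, TEAD, GRHL, HIF core).

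Polyadenylation signals are shown for the pair of these hosts in which AATAAA lay nearest to the annotated transcript end.
Nfix, − strand, chr8:87228614-87228643: gtgaaataaagaAATAAAgaaaaacaaatg
Olfml3, − strand, chr3:103537639-103537668: ggctgtgtctttAATAAAtggctgcattgt
The signal began 20 bases before the end in Nfix and 21 in Olfml3. Among all 3′ UTR windows, 20.7% held AATAAA on the gene's strand (exact 95% interval 17.3% to 24.5%). It was present in 59 of the 97 windows that ran across an annotated transcript end (60.8%, 50.4% to 70.6%) and in 48 others, or 11.5% of the windows that did not (8.57% to 14.9%). AATAAA was not counted in windows of other classes or in neighbouring sequence, so these shares have no background and say nothing particular to open 3′ UTRs.

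Per Mb of sequence, 3′ UTRs held fewer windows than coding exons and more than introns and intergenic DNA. The 3′ UTR class covered 25.1 Mb and held 20.6 windows per Mb (exact Poisson 95% interval 18.8 to 22.4). Coding exons away from starts held 32.9 (30.8 to 35.1), introns 16.5 (16.2 to 16.7) and intergenic sequence 10.3 (10.1 to 10.4). Promoters, within 1 kb of a start site, held 304.3 (299.9 to 308.8). The genome as a whole held 19.6 windows per Mb, inside the interval of the 3′ UTR class. With 1 list, these differences between classes were not tested over samples.

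**Figure D1:**
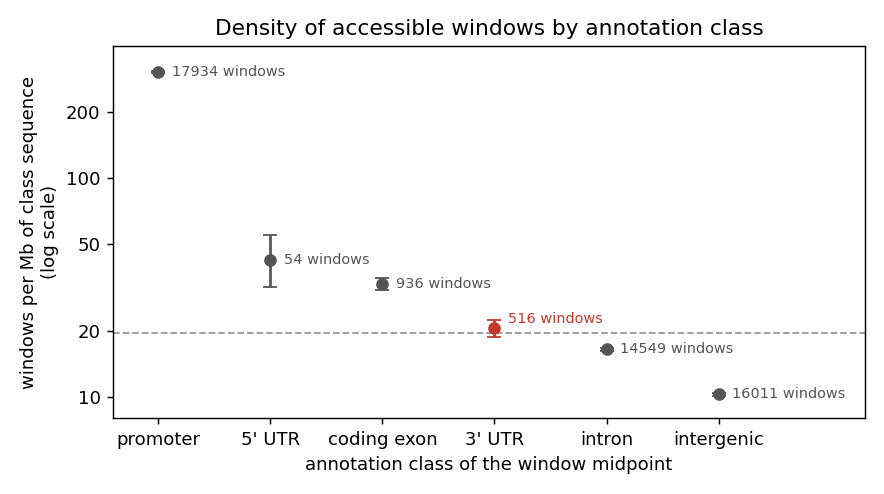
Windows per Mb of class sequence (log scale) by the annotation class of the window midpoint, with exact Poisson 95% intervals and the number of windows; the dashed line is the 19.6 per Mb of all windows. The 3′ UTR class (red) stands at 20.6, between coding exons at 32.9 and introns at 16.5.

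The 1 kb limit on start sites removed 94 windows whose midpoint also lay in a 3′ UTR. The windows kept with the closest start site were those on Cav2, which encodes a caveolin, at 1032 bp, A930018M24Rik at 1040 bp, 1520402A15Rik at 1093 bp, Zbtb32 at 1109 bp and Tet1 at 1114 bp. Just within the limit, and so left out, were windows on Nrarp, a feedback inhibitor of Notch signalling, at 991 bp, Prrg2 at 969 bp and 2010109K11Rik at 958 bp. The median distance of the 3′ UTR windows from a start site was 9245 bp (order-statistic 95% interval 8199 to 10820). The nearest start site belonged to the host gene for 55.6% of windows (51.2% to 60.0%) and to another gene for 44.4%.

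The windows were spread along the 3′ UTR. Their midpoints lay at a median of 686.5 bases after the stop codon and 842 bases before the transcript end, in 3′ UTRs with a median length of 1912.5 bases (range 44 to 14162). The median relative position was 47.3% of the way from stop codon to end (44.7% to 51.2%). For the 95.2% of windows on the longest annotated 3′ UTR of a gene, density was 24.3 per Mb in the first of 5 equal parts, next to the stop codon (20.0 to 29.2), and 17.1 in the last, next to the end (13.6 to 21.2), with 19.9, 22.5 and 19.5 in between. The intervals of neighbouring parts overlapped, and so did those of the first and the last. Of all the windows, 66.1% lay wholly inside the 3′ UTR and 97 (18.8%) spanned an annotated transcript end.

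Densities on both sides of the transcript end were close. All windows away from start sites, of any class, numbered 24.4 per Mb in the 3 kb before the end (23.1 to 25.8) and 26.6 per Mb in the 5 kb after it (25.5 to 27.6). In bins of 500 bp the values ranged from 22.7 to 28.5 per Mb. A base near the ends of several genes counts once for each.

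**Figure D2:**
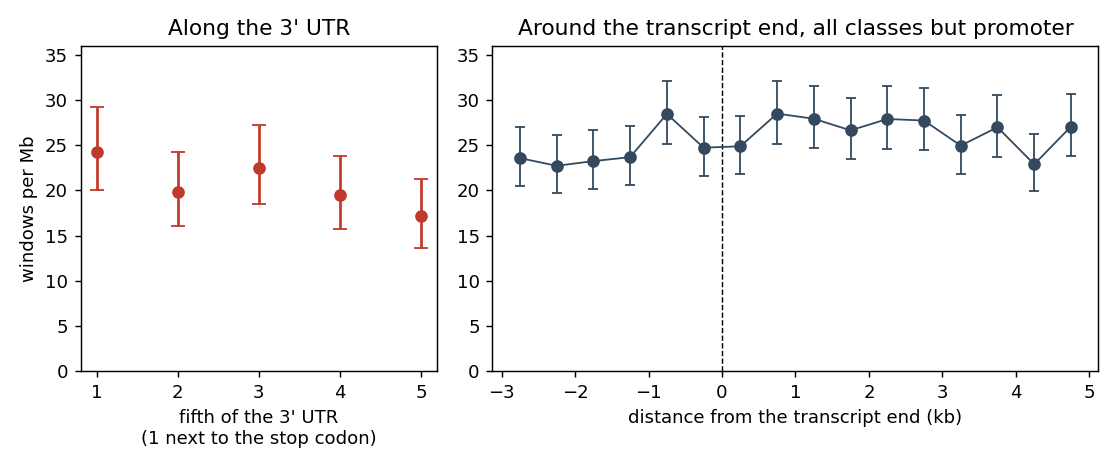
Left, windows per Mb in 5 equal parts of the longest 3′ UTR of a gene, from the stop codon (1) to the transcript end (5). Right, all windows more than 1 kb from a start site per Mb, in bins of 500 bp around the transcript end. Bars are exact Poisson 95% intervals; the left values run from 24.3 to 17.1 and the right ones stay between 22.7 and 28.5.

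The windows farthest from a stop codon lay on very long 3′ UTRs. On Strbp, which encodes an RNA-binding protein of spermatids, a midpoint lay 13008 bases after the stop codon of a 3′ UTR of 14162 bases. Hook3, a dynein adaptor, had midpoints at 7891 and 6986 bases, Rab3c, a GTPase of secretory vesicles, at 6987 bases, and Ino80d, a subunit of the INO80 chromatin remodeller, at 6858 bases. Each of these 5 came from a called peak that kept no other window. At the other extreme, a midpoint lay 2 bases before the transcript end of Trib3, a pseudokinase induced by stress. It lay 5 bases before the end on both Pigv, a mannosyltransferase of GPI anchors, and Shf, an adaptor protein, 6 on Trmt1, a tRNA methyltransferase, and 8 on Nnat, the imprinted neuronatin gene.

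Most host genes carried a single window. Of the hosts, 82.1% had 1 window on the 3′ UTR, 64 genes had 2, 10 had 3, 1 had 4 and 1 had 6. Hosts had long 3′ UTRs: the median sequence that could be counted was 1841 bases (1643 to 2073) in hosts and 864 bases (841 to 886) in all genes with such sequence. Per Mb of that sequence the longest 3′ UTRs did not lead. Genes with 0.5 to 1 kb of countable sequence had 32.8 windows per Mb (26.3 to 40.3), those with 1 to 2 kb had 19.8 (16.5 to 23.6), those with 2 to 4 kb had 19.2 (16.5 to 22.3) and those with more had 15.9 (12.8 to 19.5). Those with under 0.5 kb had 23.8 (16.7 to 33.0).

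The gene with the most windows was 2010111I01Rik (ENSMUSG00000021458), which RefSeq lists as Aopep, an aminopeptidase gene. It spans positions 63066253 to 63427404 of chromosome 13 on the + strand. Its 6 windows had midpoints 2.07%, 14.0%, 30.7%, 55.4%, 59.3% and 71.1% of the way from a stop codon to the end of a 3′ UTR of 2322 bases, and all 6 came from 1 called peak with 7 kept windows. All 6 midpoints also lay in an intron of another coding transcript, so the DNA is 3′ UTR for one transcript and intron for another. They lay inside the span of Fancc as well, a gene on the − strand at 63406017 to 63598586. Which gene the intron belonged to was not recorded. GC content ran from 43.0% to 49.4%. 2010111I01Rik held 42 windows over its span in all, and 3 windows lay within 1 kb of one of its start sites.

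Nfix (ENSMUSG00000001911), a nuclear factor I gene at 87223775 to 87324243 of chromosome 8 on the − strand, had 4 windows on a 3′ UTR of 3951 bases. Their midpoints lay 21.5%, 41.2%, 94.0% and 99.1% of the way along it, the first pair in 1 called peak and the second pair in another. The peak at the far end reached Lyl1, a haematopoietic bHLH factor gene on the opposite strand. Lyl1, at 87225356 to 87228614, lies inside the annotated span of Nfix. The remaining kept window of that peak had its midpoint 45.6% of the way along the Lyl1 3′ UTR. The CTCF word printed above with Nfix lay in that Lyl1 3′ UTR and not in that of Nfix. Nfix held 52 windows over its annotated span, the one on Lyl1 included.

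The other 10 genes had 3 windows each, and in all but Plekhm3 and Gm12824 at least 1 pair of them overlapped. In Edar, the ectodysplasin receptor of ectodermal appendages, midpoints lay 37.2%, 58.6% and 77.8% of the way along a 3′ UTR of 2073 bases. In Faim2, an inhibitor of Fas-mediated cell death, they lay at 37.1%, 52.5% and 71.3% of 3143 bases, and in Padi1, a peptidylarginine deiminase of epidermis, at 4.88%, 25.3% and 62.1% of 1638 bases. Slc10a7, of a family of solute carriers, had them at 41.8%, 48.8% and 66.0% of 2367 bases. Apart from the first in Padi1, these midpoints lay well inside the 3′ UTR.

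In 2010011I20Rik (Fam210b in RefSeq) midpoints lay at 55.9%, 69.3% and 89.5% of 2947 bases, and in Olfml3, a secreted matrix protein gene, at 44.1%, 71.2% and 91.7% of 2131 bases. Rhoj, a small GTPase of endothelial cells, had them at 57.6%, 66.2% and 80.7% of 3886 bases, and all 3 also lay in an intron of another coding transcript.

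In Plekhm3 and Gm12824 the windows stood apart. Plekhm3 had midpoints at 33.8%, 57.9% and 81.1% of 5916 bases and Gm12824 (Trabd2b in RefSeq) at 32.3%, 54.5% and 83.1% of 4969 bases, each from a called peak of its own. D930048N14Rik had 1 at 10.4% and an overlapping pair at 77.5% and 86.2% of 2936 bases. RefSeq lists D930048N14Rik as a long noncoding RNA, and 5 hosts in all, so that the 3′ UTRs of these depend on the annotation. Of the hosts 96.7% matched a coding RefSeq gene, against 95.6% of all genes with such sequence.

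**Figure D3:**
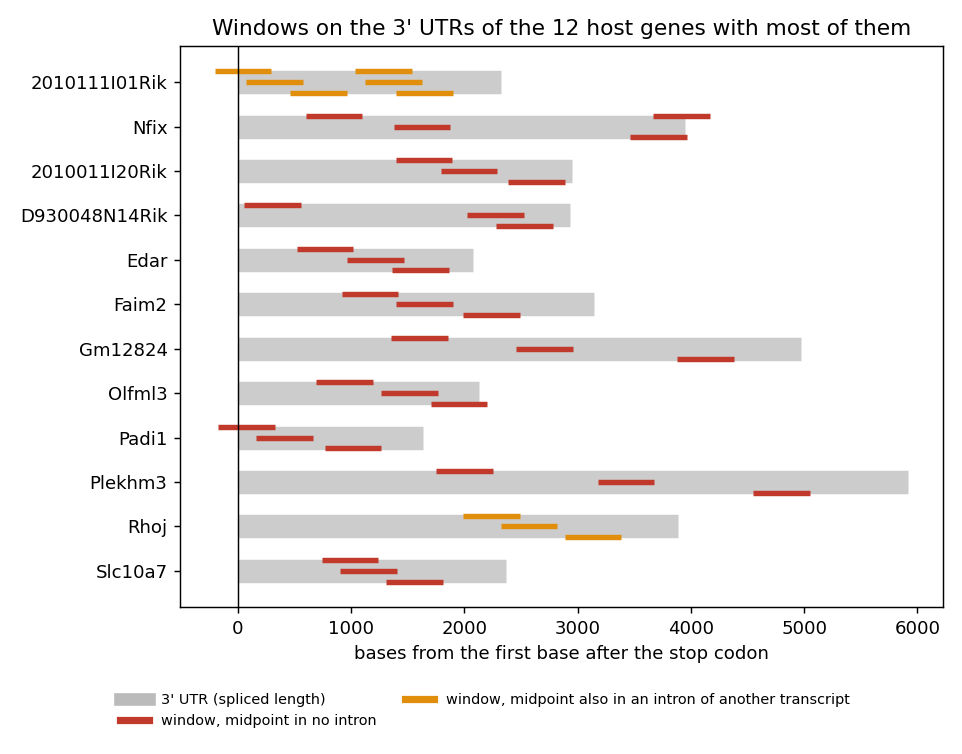
Windows on the 3′ UTRs of the 12 host genes with the most of them, in bases from the first base after the stop codon along the spliced 3′ UTR (grey). Bars are the 500 bp windows, drawn around their midpoints and offset vertically to show overlaps; orange bars have a midpoint that is also in an intron of another coding transcript. 2010111I01Rik has 6, Nfix 4 and the rest 3 each.

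Host genes mostly had an open start as well. A window lay within 1 kb of a start site in 78.1% of hosts (exact 95% interval 73.9% to 82.0%), against a background of 51.7% of all protein-coding genes and 58.0% of genes with countable 3′ UTR sequence (57.3% to 58.7%). Genes with an intron window had one in 76.5% of cases (75.3% to 77.7%) and those with a coding exon window in 68.0% (64.7% to 71.1%). Read the other way, 2.99% of genes with an open start hosted a 3′ UTR window (2.69% to 3.33%), against 1.16% of genes without one (0.936% to 1.42%). Per Mb of countable 3′ UTR these genes had 22.8 (20.6 to 25.2) and 14.7 windows (12.1 to 17.6). Hosts held a median of 3 windows over the gene, the 3′ UTR window included, and all genes with such sequence a median of 1. Genes with a coding exon window and genes with an intron window also had a median of 3. All of these sets but the full one hold at least 1 window by definition.

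The other 93 hosts had no window within 1 kb of a start. Edar, Faim2 and Padi1 led them with 3 windows on the 3′ UTR each. The closest window to an Edar start lay 11558 bp away, that of Padi1 7672 bp and that of Faim2 3020 bp. Another 13 had 2 each, of which 3930402G23Rik, a noncoding gene in RefSeq, and 4930427A07Rik (Tedc1 in RefSeq) come first by alphabet. Windows of hosts without an open start had a median GC content of 51.4% (50.4% to 53.2%) and those of the rest 52.4% (51.6% to 53.2%). AP-1 words were in 9.82% of the former (11 windows, 5.01% to 16.9%) and 14.9% of the latter (60 windows, 11.5% to 18.7%), with overlapping intervals.

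Named pathways were looked up among the hosts, through 16 gene lists in which 20 genes hosted a window. Immediate early genes and feedback inhibitors of ERK, which respond within minutes to growth factors, had 4 hosts of 31 (12.9%, exact 95% interval 3.63% to 29.8%), against the 2.22% of all genes. Per Mb of countable 3′ UTR this was 101.8 windows (33.1 to 237.6), and 32 of the 34 genes listed had an open start. Among all genes with an open start the share of hosts was 2.99% (2.69% to 3.33%). Ier5 had 2 windows from 1 called peak, with midpoints 0.140% and 23.9% of the way along its 3′ UTR. The interval per Mb counts these 2 as independent. Jun, a subunit of AP-1, had 1 at 12.3% of 1233 bases, Dusp6, a phosphatase of ERK, had 1 at 9.84% of 1189 bases, and Ier2 had 1 at 56.8%. All 4 had windows at their starts as well, 3 each at Jun and Dusp6, 2 at Ier2 and 1 at Ier5. The midpoints lay only 1135 bp (Ier5) to 3185 bp (Dusp6) from a start site. Those of Ier5 (1135 and 1642 bp) and Ier2 (1195 bp) would be left out by a limit of 2 kb. The windows of Jun (2056 bp) and Dusp6 would remain.

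Wnt, Notch and TGF-beta signalling had 4 hosts of 45 (8.89%, 2.48% to 21.2%), each with 1 window. Per Mb of countable 3′ UTR this was 47.4 windows (12.9 to 121.3), an interval that included the 20.6 of the class. Of the 45 genes 41 had an open start, and the 2.99% of all genes with an open start lay within the interval of the list. Smad3 and Smad7, which transmit and inhibit the TGF-beta signal, had midpoints 65.9% and 37.1% of the way along, Tgfbr2, its type II receptor, had one at 91.3% of a 3′ UTR of 6081 bases, and Hey1, a Notch target, at 60.6% of one of 1134 bases. All 4 had windows at their starts, from 2 in Tgfbr2 to 4 in Smad7.

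Hypoxia response genes had 2 hosts of 44 (4.55%, 0.555% to 15.5%). Ndrg1, a stress-response gene induced by low oxygen, had a window 18.1% of the way along its 3′ UTR, and Bhlhe40, a transcriptional repressor, had one at 44.6%. The Bhlhe40 window held an AP-1 word and that of Ndrg1 did not. Chromatin regulators had 2 of 40: Mll1 (Kmt2a in RefSeq), a histone H3 methyltransferase, with a midpoint at 65.8%, and Tet1, which oxidises methylcytosine, at 53.3%.

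The remaining lists had 2 hosts or fewer, with intervals that included the 2.22% of all genes. Endothelial genes had 2 hosts of 20, the receptors of vascular growth factors Flt4 (3.44% of the way along) and Kdr (36.3%). Neither had a window at its start, and in each the 3′ UTR window was the only one in the gene. The luminal epithelial list had 1 host of 35, Cldn4, a tight junction protein, with a midpoint at 59.4%. That was the only midpoint inside the gene, but unlike Flt4 and Kdr, Cldn4 had a window at its start, 99 bp from it. Single hosts were Src, the tyrosine kinase bound by polyoma middle T, among 40 breast cancer genes, Ephb4, an ephrin receptor, among 34 receptor tyrosine kinases and ligands, and Pvrl2 (Nectin2 in RefSeq), an adhesion molecule, among 35 junction genes. Mmp2, a matrix metalloprotease, was the host among 24 fibroblast genes, and its midpoint lay 53 bases before the transcript end.

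Factors that themselves act on 3′ UTRs, with microRNA and polyadenylation machinery, had 1 host of 46 (2.17%, 0.0550% to 11.5%). This was Eif2c4 (Ago4 in RefSeq), an Argonaute, with a midpoint at 63.8% of 3682 bases. None of 22 basal and myoepithelial, 20 hepatocyte, 23 housekeeping, 22 neuronal and 30 pan-immune genes hosted a window, which with lists of this size allows shares up to 15.4%, 16.8%, 14.8%, 15.4% and 11.6%. No annotated microRNA overlapped any of the 3′ UTR windows.

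**Figure D4:**
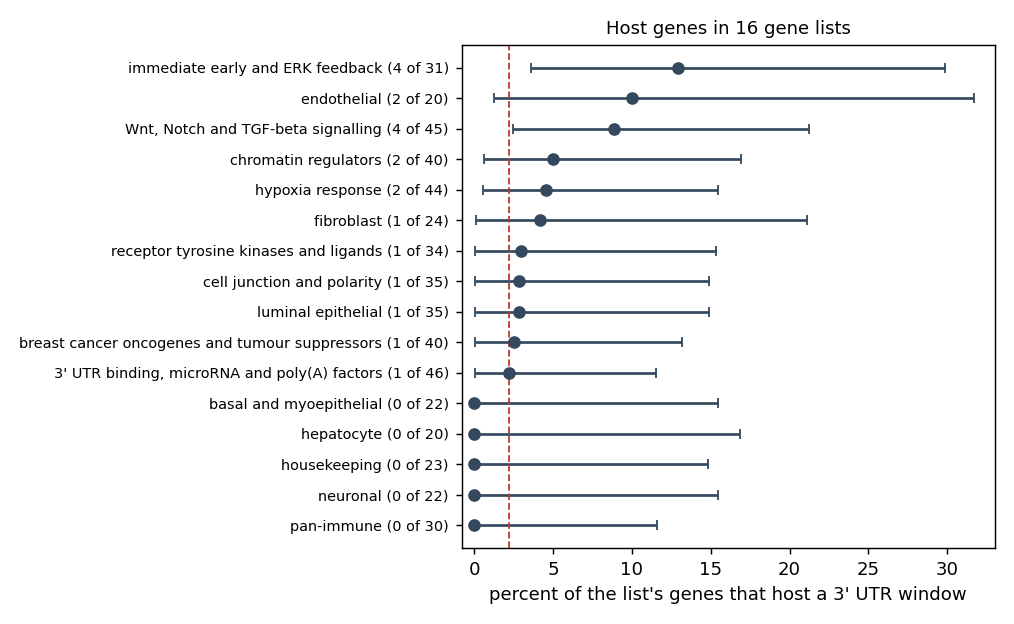
Percent of each list's genes with countable 3′ UTR sequence that host a 3′ UTR window, with exact 95% binomial intervals and, in brackets, hosts and genes; the dashed line is the 2.22% of all such genes. The immediate early list stands at 12.9% (4 of 31) and 5 lists stand at 0.

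The genes of the stained proteins and the marker lists were checked for the identity of the pool. Epcam had 2 windows at its start and 7 midpoints inside the gene, Hif1a had 1 and 1, and Ptprc, which encodes CD45, had none. None of the 3 had a window on its 3′ UTR. Start sites carried a window in 51.7% of all protein-coding genes. They did so in 32 of 35 luminal genes (91.4%) and 13 of 22 basal genes (59.1%). The counts were 4 of 30 pan-immune, 3 of 24 fibroblast, 2 of 20 endothelial, 5 of 22 neuronal and 3 of 22 hepatocyte genes. All 24 housekeeping and all 36 junction genes also had one, so an open start was not particular to luminal genes.

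In base composition the windows resembled those of introns more than those of coding exons. Median GC content was 52.2% on 3′ UTRs (95% interval 51.6% to 53.0%), 56.4% on coding exons (56.0% to 57.0%), 50.6% in introns (50.4% to 50.6%) and 62.0% at promoters. The sequences of 500 bp centred 750 bp to either side of the midpoints of the 3′ UTR windows had a median of 49.6% (49.2% to 50.4%). The median number of CpG dinucleotides per window was 8 on 3′ UTRs, 14 on coding exons, 7 in introns and 35 at promoters. A composition like that of CpG islands (GC of 50% or more and an observed to expected CpG ratio of 0.6 or more) was found in 37 windows (7.17%, exact 95% interval 5.10% to 9.75%), against 24.1% on coding exons, 3.11% in introns and 68.6% at promoters. It was close to the 6.63% of intergenic windows and below the 28.2% of all windows.

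CpG-rich windows lay both near coding starts and far from them. Of the 37, 18 lay within 5 kb of a coding start (48.6%), as did 30.1% of the others. A further 2 lay within 1 kb of the start of a gene that GENCODE M1 annotates as noncoding. The most CpG were in Cog8, a subunit of a Golgi tethering complex, with 65 in the window and 8236 bp to the nearest start annotated as coding. That window and the second window of Cog8 lay within 1 kb of the start of Pdf, annotated as a processed transcript, and these were the 2 just counted. Aars, the alanyl-tRNA synthetase gene, followed with 57 at 22433 bp, then Shf with 54 at 8323 bp, Fam172a with 52 at 32591 bp and Unc13a, a priming factor of synaptic vesicles, with 47 at 18381 bp. These 5 were chosen after their values were seen.

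Short consensus words of transcription factors were searched on both strands of every window. The AP-1 word TGANTCA was in 71 of the windows on 3′ UTRs (13.8%, exact 95% interval 10.9% to 17.0%). Its share was 7.91% on coding exons (6.26% to 9.82%), 18.2% in introns (17.6% to 18.9%), 19.8% in intergenic windows (19.2% to 20.4%) and 14.8% of all windows. In the 1032 flanking sequences, of which 50.3% had their centre in a 3′ UTR and 15.8% held the midpoint of another window, the share was 12.3% (10.4% to 14.5%). Of the 80 AP-1 matches on 3′ UTRs, 19 (23.8%) lay within 50 bp of the midpoint, the central 20% of the window. This was close to the 22.9% of AP-1 matches in all windows, with 24.2% in introns and 17.9% on coding exons.

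Words rich in G and C were more frequent in the windows than beside them. CCGGAAG, the ETS word, was in 8.33% (6.10% to 11.1%) of the windows and 4.26% (3.11% to 5.68%) of the flanks, and in 9.47% of all windows. GGGCGG, the word of SP and KLF factors, was in 22.5% (18.9% to 26.3%) and 13.4% (11.4% to 15.6%), and in 37.2% of all windows. In the windows without CpG-island-like composition the ETS share was 6.68% (4.61% to 9.30%) and the SP/KLF share 19.4% (16.0% to 23.2%), beside 3.67% and 15.1% in intron windows without it. The windows had a higher GC content than their flanks, and its part in these shares was not tested.

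AGATAA, the word of GATA factors, went the other way, with 12.2% of the windows (9.51% to 15.3%), 18.4% of the flanks (16.1% to 20.9%), 16.6% of intron windows and 13.6% of all windows. The CTCF word was in 37 windows (7.17%, 5.10% to 9.75%), in 5.04% of flanks (3.79% to 6.56%), 5.58% of intron windows and 5.69% of all windows. The intervals of windows and flanks overlapped for CTCF and for the words that follow.

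TEAD (GGAATG) was in 28.9% of windows and 25.8% of flanks, with 24.7% of all windows, and the HIF core (ACGTG) in 27.3% and 26.2%, with 29.4% of all windows. C/EBP (TTGCNNAA) was in 22.7% and 17.5%, with 19.0% of all windows, and STAT (TTCNNNGAA) in 15.5% and 14.6%, with 13.6%. RUNX (TGTGGTT) was in 11.0% and 9.11%, with 9.44% of all windows, FOX (TGTTTAC) in 6.40% and 5.14%, with 6.12%, and GRHL (AACCNGTT) in 6.01% and 3.88%, with 5.05%. The full NFI word, TTGGC and GCCAA separated by any 5 bases, was in 1 window, in none of the flanks and in 0.114% of all windows; its spacer is free and could hold a shorter word, and no other word lies inside another. Of the 3′ UTR windows, 68 (13.2%) held none of the 13 words.

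**Figure D5:**
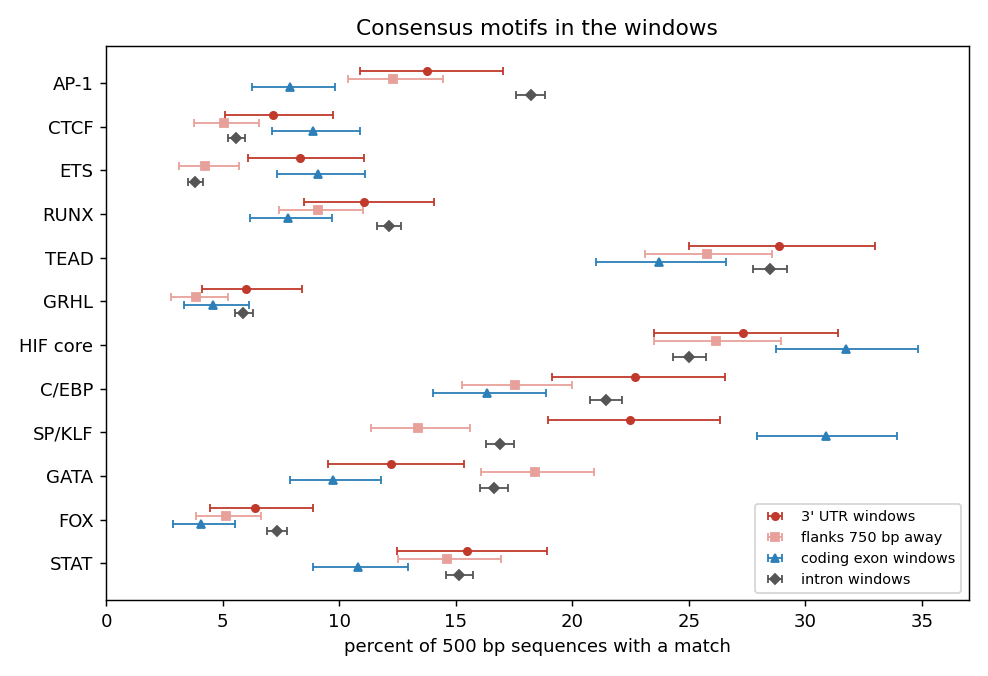
Percent of 500 bp sequences with a match on either strand to each word, for 3′ UTR windows, their flanks centred 750 bp from the midpoint (n = 1032), coding exon windows (n = 936) and intron windows (n = 14549), with exact 95% binomial intervals. AP-1 stands at 13.8% on 3′ UTRs, between 7.91% on coding exons and 18.2% in introns; the NFI word, with 1 window, is not drawn.

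Many of the windows had close neighbours. Another window lay within 5 kb of 350 (67.8%, 63.6% to 71.8%), against 59.5% of coding exon windows (56.3% to 62.7%), 63.2% of intron windows (62.4% to 64.0%) and 65.5% of all windows. The median distance to the nearest other midpoint was 1657 bp (1277 to 2233). Called peaks with several kept windows gave 29.7% of the 3′ UTR windows (25.7% to 33.8%), close to the 30.1% of intron windows and below the 55.9% of promoter windows. Their share was 26.7% on coding exons, 31.7% in intergenic windows and 39.8% of all windows. In 44 called peaks 2 or more windows lay on a 3′ UTR, 100 windows in all.

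The broadest called peaks touching a 3′ UTR kept 7 windows. Besides that of 2010111I01Rik, the other was at Dmpk, the kinase gene whose 3′ UTR holds the repeat expanded in human myotonic dystrophy. There 1 of the 7 windows lay on the 3′ UTR, 53.8% of the way along and 1167 bp from a start site. A peak of 6 windows reached Fam84b (Lratd2 in RefSeq), where 1 midpoint lay 96 bases after the stop codon and another, from a peak of its own, 19.2% of the way along. Peaks of 5 reached A930004D18Rik, Gm10083 and Olfml3, and 4 peaks of 4 windows reached 2810432L12Rik (Pgap4 in RefSeq), B430305J03Rik, Ephb4, and the neighbours Hcfc1r1 and Tnfrsf12a together.

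Few of the windows lay at an annotated noncoding start. The start of a noncoding gene was within 1 kb of 18 (3.49%, 2.08% to 5.46%), against 1.96% of intron windows (1.74% to 2.20%) and 4.27% of intergenic ones (3.96% to 4.60%). On coding exons it was 3.63% (2.53% to 5.04%), and among all windows 4.85% (4.66% to 5.04%). The 3 windows of Olfml3 were near the start of Gm16520, a processed transcript, the closest at 96 bp, and those of Fam84b near the lincRNA 9930014A18Rik, the closest at 98 bp. On Ank1, which encodes an ankyrin, a midpoint lay 17 bp from the start of the antisense gene Gm15816. The Ndrg1 window lay 980 bp from that of the antisense gene Gm17035. A noncoding transcript of a coding gene started within 1 kb of 24 windows (4.65%, 3.00% to 6.84%), close to the 4.56% of intron windows. The share was 10.8% on coding exons, 0.475% in intergenic windows and 16.6% of all windows.

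Along the chromosomes the windows followed the sequence of their class unevenly. The median over the 19 autosomes was 21.6 windows per Mb of 3′ UTR class sequence. Chromosome 8 had the most, 47 windows or 41.6 per Mb (30.6 to 55.4), and chromosome 18 the fewest, 9 windows or 12.3 per Mb (5.63 to 23.4). For intron windows chromosome 8 stood at 23.5 per Mb, beside an autosome median of 16.3. The highest intron value of the autosomes, 23.6, was that of chromosome 18. For coding exon windows chromosome 8 was highest at 43.1 per Mb, beside a median of 33.8, and chromosome 18 stood at 34.1. Chromosome X carried 3 windows, 2.89 per Mb (0.595 to 8.44), and its intron windows numbered 4.38 per Mb. The densest 1 Mb bins held 8 of the windows each: 63000001 to 64000000 of chromosome 13, with 2010111I01Rik and Fancc, a Fanconi anaemia gene, and 87000001 to 88000000 of chromosome 8, with Dand5, Ier2, Lyl1, Nfix and Trmt1.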

How the data were processed

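The authors trimmed and mapped the reads to mm9 (Bowtie2 2.1.0 and Picard 1.79 in the submitters' processing notes, which also name hg19), pooled the single cells, called summits with MACS2 (its version is not given in the sources used here), widened them to 500 bp and kept the windows with the lowest q-values. The deposited file gives the position and name of each window, with no score, count or depth, so no test was run. Whether wells stained for CD45 entered the pool is not stated outright.

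Window midpoints were classed with GENCODE M1 on the mm9 sequence, chromosomes 1 to 19 and X, in the order promoter (within 1 kb of 45940 protein-coding start sites), 5′ UTR, coding exon (stop codon included), 3′ UTR, intron and intergenic. Densities divide by the ungapped bases of each class. Intervals are exact binomial, exact Poisson or order-statistic 95% intervals (Python 3, scipy) and cover counting error only. Names of 9 list entries, current symbols and biotypes came from a RefSeq table of another build. The code was tested on simulated intervals. Genes were named by a rule: the 12 hosts with most windows, the 8 broadest called peaks (Ephb4, Hcfc1r1 and Tnfrsf12a, tied with the last of these, were added), list members, the 5 extremes of position at each end, hosts without an open start and the stained genes. The windows, lists and words were chosen with earlier results of these data known. In all, 7 alternative choices were tried, and 1 more was added after seeing the data.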

Additional observations from a re-analysis of the deposited data

How the results depend on the processing

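Of the 77 values computed under alternatives, 65 stayed within the 95% interval of the value reported. The share of the 50000 windows that lay on 3′ UTRs was 1.032% as reported. Each alternative filtered the 3′ UTR windows only and kept the 50000 as divisor, so this share could not rise. It was 0.934% at more than 2 kb from start sites, 0.882% without midpoints in an intron and 0.920% with 1 window per called peak. With the whole window inside the 3′ UTR it was 0.682%, and with only called peaks that kept several windows 0.306%. With the whole window inside, 82.1% of host genes had an open start and the median GC content was 51.4%. With 1 window per called peak, the density over the same bases was 18.3 per Mb, and 21.1% of windows came from called peaks with several kept windows. With only the latter peaks, the density over the same bases was 6.10 per Mb, and 5.88% of windows lay within 1 kb of a noncoding gene start. By construction, 100% of them had a neighbour within 5 kb. Merging windows that overlapped by 250 bp kept 97.5% of them, and the alternative added after seeing the data, hosts coding in RefSeq too, kept 96.7%. The density with whole windows was not computed, and no paired analysis was possible because no result comes from a test. The list holds no reads, so windows below its q-value limit are unseen.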
